A study of Mus musculus with 3 samples.

Results

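Pericytes of the mouse gallbladder wall were looked for by their genes among single cells of the whole organ. A barcode, the tag of 1 droplet, was taken where it carried at least 3 of the 7 mural genes Rgs5, Notch3, Kcnj8, Abcc9, Higd1b, Cox4i2 and Pdgfrb. It also had to lack Pecam1, Cdh5 and Ptprc, to have under 10000 CPM (counts scaled to a common total) of Acta2, Tagln and Myh11 together, and to have under 6000 CPM of Epcam, Krt8, Krt18 and Krt19 together. Once barcodes under 300 genes or over 20% mitochondrial counts were dropped, 26017 remained, and 440 of them met this rule, which is 1.69% (95% exact binomial interval 1.54 to 1.86). These values chose the cells, so the 7 genes describe the selection and are no finding.

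The study gave male C57BL/6 mice nanoplastics by oral gavage for 3 weeks or for 6 weeks, or vehicle by gavage for 6 weeks. Each of the 3 groups was 1 library of 10 pooled gallbladders, digested with trypsin and sequenced from the 3′ end of the transcript on the 10x platform. No genotype other than the strain, and no age, is given in the labels used here. The count matrix numbers its libraries 1, 2 and 3 and does not name their groups, so no exposed library was compared with the control, and values below are given library by library or pooled over the 3. The libraries are not replicates of a condition, and every interval covers counting error only.

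Pericytes sit on the outer face of capillaries and small veins, inside the vessel's basement membrane, and share their descent and many genes with vascular smooth muscle. Endothelial cells recruit them through PDGF-B, which binds the receptor encoded by Pdgfrb, and signal to them through NOTCH3. Kcnj8 and Abcc9 encode the pore and the sulfonylurea-receptor subunit of the ATP-sensitive potassium channel that relaxes mural cells, and Rgs5 encodes a brake on G-protein signalling. Higd1b and Cox4i2 encode mitochondrial proteins that are high in mural cells of several mouse organs.

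Libraries 1, 2 and 3 held 168, 126 and 146 of the cells. They made up 3.81% of kept barcodes in library 1 (95% interval 3.27 to 4.42), 1.09% in library 2 (0.909 to 1.30) and 1.45% in library 3 (1.23 to 1.71). Their median depth was 10488 unique molecular identifiers (UMIs) in library 1, 3026 in library 2 and 2742 in library 3. A share that rests on finding 3 genes in a cell moves with this depth, and the 3 shares were not compared. Of all kept barcodes 771 had at least 3 of the 7 genes. The contractile limit took out 213 of them, with 9907 CPM just inside it and 10155 CPM just outside, and the epithelial limit took out 39, with 5968 CPM just inside and 6158 CPM just outside. No barcode sequence of the 440 cells occurred among them in more than 1 library, 2 of the 440 had a sequence that another library also held, and 13 of the 440 (2.95%) had a Scrublet doublet score over 0.25.

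The label fitted only some of these barcodes by their other genes. Pdgfra, the receptor that marks fibroblasts and that the rule did not use, was absent from 221 barcodes and present in 219. The Pdgfra-negative barcodes had a median of 551 CPM over the matrix genes Col1a1, Col1a2 and Dcn together, against 23491 CPM in the Pdgfra-positive ones. The 5000 CPM of these 3 genes that defined a fibroblast here was reached by 22 of the 221 Pdgfra-negative barcodes, 15 of them in library 3, and by 210 of the 219 Pdgfra-positive ones. The split at Pdgfra was chosen after the values were seen. The 440 barcodes are described below as these 2 populations. Rgs5, which the rule itself used, was found in 208 of the 221 Pdgfra-negative barcodes, where any UMI counted. These 208 had a median of 539 CPM over Col1a1, Col1a2 and Dcn. Single ones reached more, such as 43370 CPM in a library 3 barcode with 498.5 CPM Rgs5. The Pdgfra-positive population carried the profile of fibroblasts. The 13 barcodes with neither Rgs5 nor Pdgfra, 7 of them in library 3, had a median of 18653 CPM over Col1a1, Col1a2 and Dcn. They were kept in the Pdgfra-negative population.

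The populations met the rule through different genes. Among Pdgfra-negative barcodes 123 of 221 carried 5 to 7 of the 7 genes, and 48 carried all of them. Among Pdgfra-positive barcodes 182 of 219 carried exactly 3. The most frequent combination of all, Kcnj8 with Abcc9 and Pdgfrb, was found in 139 barcodes, of which 132 had Pdgfra. The full set of 7 genes was found in 49 barcodes, of which 1 had Pdgfra, and the 49 came from library 1 (36) and library 2 (13) with none from library 3.

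Fibroblasts of this gallbladder carried 2 genes of the rule widely. Of 3859 barcodes that passed the fibroblast threshold, those that met the rule included, 60.3% had an Abcc9 UMI and 38.5% a Pdgfrb UMI. Kcnj8 was found in 8.55% of them, Rgs5 in 2.41% and Higd1b in 0.155%. The number of the 7 genes found in such a barcode went with its depth. The median was 2064 UMIs at 0 genes, 2847 at 1, 4231 at 2 and 7160.5 at 3, and 5.44% of the barcodes reached at least 3. The Pdgfra-positive barcodes had a median of 7291 UMIs, against 2941 in the 3649 fibroblasts that did not meet the rule. Over all other genes the 2 were close. By the fold rule given below, Pdgfra-positive barcodes were higher than these fibroblasts in 3 of 6537 genes (0.0459%), which were Mcam, Nes and St6galnac2, and lower in 4 (0.0612%), which were H2-Aa, Smoc2, Stc2 and Svep1, or 7 in all (0.107%).

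**Figure D1:**
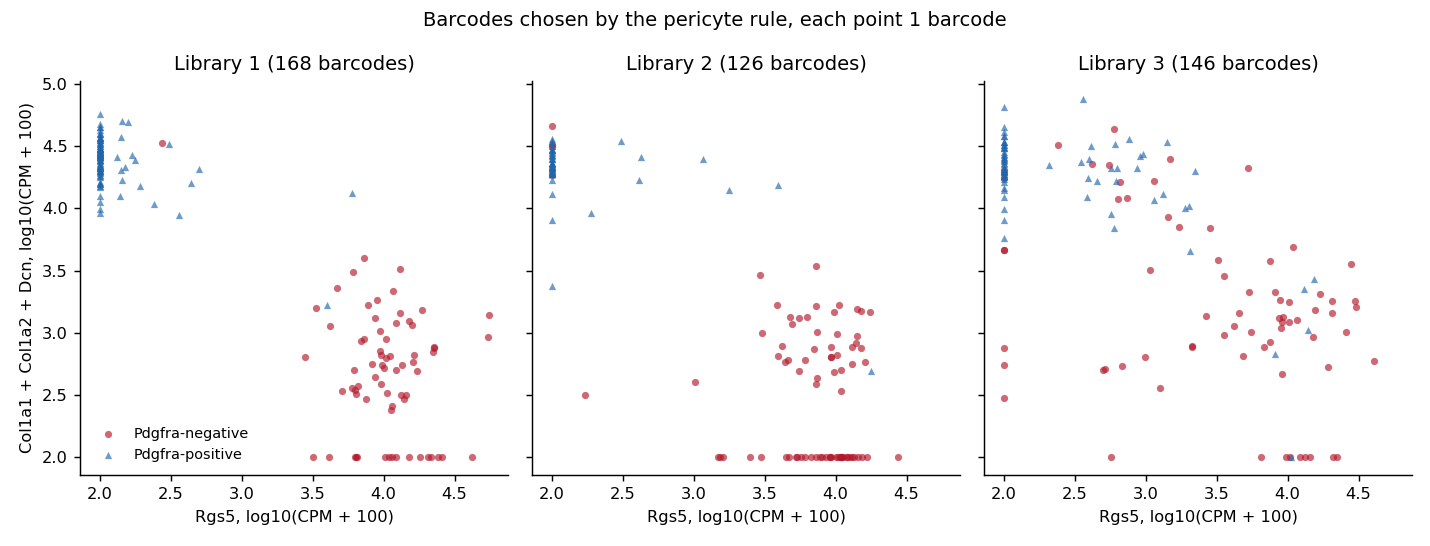
Barcodes that met the rule, each a point, by their summed CPM of Col1a1, Col1a2 and Dcn and Rgs5 CPM in each of the 3 libraries. The 208 barcodes with Rgs5 and without Pdgfra had a median of 9023 CPM Rgs5 and 539 CPM over these 3 genes, and the 163 with Pdgfra and without Rgs5 had a median of 25167 CPM over them.

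Markers of other cell types were present and differed between libraries. All 12 epithelial markers were detected, among them Epcam, Krt8, Krt18 and Krt19, which the rule held under 6000 CPM together in each barcode. The 12 summed to 445, 1809 and 3890.5 CPM in Pdgfra-negative barcodes of libraries 1, 2 and 3, against 470.2, 695 and 1551 CPM in Pdgfra-positive ones. The genes with the widest range between libraries in Pdgfra-negative barcodes included Slc4a4, a bicarbonate transporter, at 18.8, 58.4 and 1464 CPM, and Slpi, a protease inhibitor of mucosa, at 4.71, 0 and 562 CPM. The 10 fibroblast markers summed to 1317, 3237 and 5338 CPM in Pdgfra-negative barcodes, with Pdgfra at 0 by the split, against 21123, 19369 and 23192 CPM in Pdgfra-positive ones. Library 3 had the highest epithelial and fibroblast sums in Pdgfra-negative barcodes and, as given below, the lowest level of each of the 7 rule genes. The part of one in the other was not tested. In library 3, Pdgfra-negative barcodes of 45868, 23594 and 17724 UMIs, each with Rgs5 at 0, were part of a total of 241873 UMIs. Summed levels of library 3 weigh such deep barcodes heavily. Among barcodes with Rgs5 and without Pdgfra, the median Rgs5 was 10372, 9018 and 6562 CPM in libraries 1, 2 and 3.

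The 9 endothelial markers summed to 73.0, 53.9 and 145 CPM in Pdgfra-negative barcodes, with Pecam1 and Cdh5 at 0 by the rule, against 19.6, 11.3 and 96.5 CPM in Pdgfra-positive ones. The 10 leukocyte markers summed to 120.1, 611 and 107 CPM, with Ptprc at 0 by the rule and Cd3e also at 0, against 53.3, 71.7 and 118 CPM. In library 2 the leukocyte sum was mostly Cd74, at 521 CPM. The endothelial sum was low beside the endothelial barcodes themselves, whose Flt1 alone stood at 2789.7, 2442 and 2629.8 CPM.

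Rgs5 was the highest of the rule genes in the Pdgfra-negative population and low in the other. It stood at 10983, 7102 and 4225 CPM in Pdgfra-negative barcodes of libraries 1, 2 and 3. Pooled over libraries only Malat1 was higher there, in a ranking that left out ribosomal, mitochondrial, Gm, Rik and clone-named genes. Pdgfra-positive barcodes had 90.4, 298 and 512 CPM, and the other fibroblasts 3.84 CPM pooled. Both Rgs5 and Pdgfra were found in 56 barcodes, and their median Rgs5 was 435 CPM.

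The other mural genes of the rule followed the same order. Notch3, the receptor that mural cells need to mature around arteries, stood at 770.2, 588 and 546 CPM in Pdgfra-negative barcodes of the 3 libraries and at 6.75, 15.1 and 91.1 CPM in Pdgfra-positive ones. Higd1b, whose product resembles assembly factors of the respiratory chain, stood at 485, 503 and 132 CPM, against 4.05, 30.2 and 10.7 CPM. Cox4i2, an alternative subunit of cytochrome c oxidase, stood at 455, 548 and 119.9 CPM, against 13.5, 49.1 and 13.4 CPM. Library 3 was the lowest of the 3 for each of these genes in Pdgfra-negative barcodes.

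The channel genes and Pdgfrb, which fibroblasts also carried, lay closer together. Kcnj8 stood at 367, 337 and 66.2 CPM in Pdgfra-negative barcodes, against 103, 189 and 129 CPM in Pdgfra-positive ones, and in library 3 the order was turned round. Abcc9 stood at 1251, 992 and 322 CPM, against 263, 397 and 579 CPM, again with the order turned round in library 3, and other fibroblasts had 337 CPM pooled. Pdgfrb, which is not lower in any library, stood at 1175, 925 and 459 CPM, against 198, 295 and 319 CPM. Both channel genes were found together in 94 Pdgfra-negative barcodes and 159 Pdgfra-positive ones, while Abcc9 without Kcnj8 was found in 77 and 52 of them. In the other fibroblasts the pair was found in 102 and Abcc9 without Kcnj8 in 2018.

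**Figure D2:**
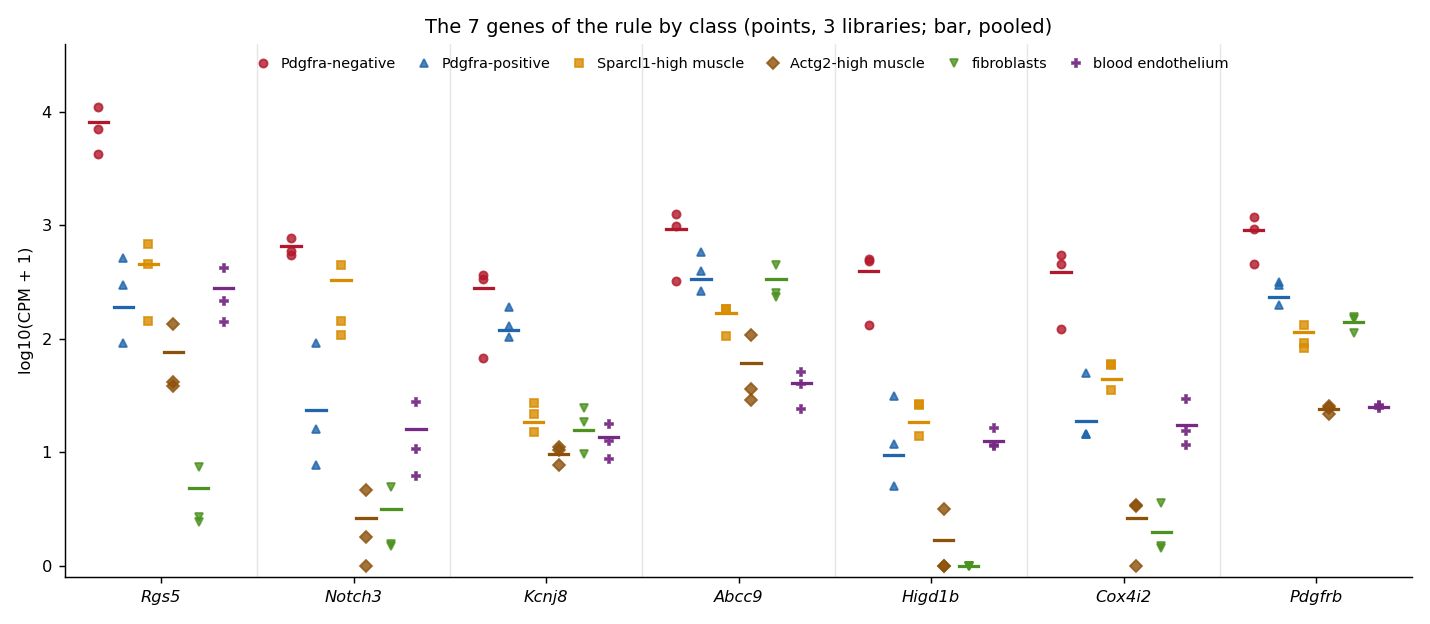
Level of each of the 7 rule genes as log10(CPM + 1), with a point for each library and a bar for the pooled value, in Pdgfra-negative barcodes, Pdgfra-positive barcodes and the other classes of the wall. Rgs5 reached 10983 CPM in Pdgfra-negative barcodes of library 1, and Abcc9 stood at 335 CPM pooled in Pdgfra-positive barcodes and 337 CPM pooled in other fibroblasts.

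Kcnj8 and Abcc9 lie next to each other on mouse chromosome 6, both on the minus strand of GRCm38, at bases 142564837 to 142571614 and 142587862 to 142702315, with 16247 bases between them. Their promoters are shown with that of Rgs5 because Rgs5 was the highest rule gene of the Pdgfra-negative barcodes, while the channel genes were found in both populations. Each window runs from 250 bases before to 50 bases after the RefSeq start, on the gene's strand (GRCm38.p6). Capitals mark TGGGAA on either strand, letters bound by RBPJ, the DNA-binding partner of Notch. The Rgs5 window, chr1:169655251-169655550 on the plus strand, held 0 matches. The Kcnj8 window, chr6:142571565-142571864 on the minus strand, and the Abcc9 window, chr6:142702225-142702524 on the minus strand, held 1 each. Of 32851 mouse promoters of this length 25.56% held TGGGAA, and a match describes the letters and not a site. Letters of hypoxia-inducible factor and early B-cell factor, the CArG box and the TATA box were also searched, with 0 matches in these windows. The Notch3 window, searched but not shown, held 0 matches of TGGGAA and 2 of hypoxia-inducible factor.
Rgs5: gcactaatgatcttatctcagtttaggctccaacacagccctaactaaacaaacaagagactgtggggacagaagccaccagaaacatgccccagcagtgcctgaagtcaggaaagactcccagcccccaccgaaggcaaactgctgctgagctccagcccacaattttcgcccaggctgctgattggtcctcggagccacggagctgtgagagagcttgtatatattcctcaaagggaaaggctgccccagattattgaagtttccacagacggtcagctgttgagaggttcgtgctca
Kcnj8: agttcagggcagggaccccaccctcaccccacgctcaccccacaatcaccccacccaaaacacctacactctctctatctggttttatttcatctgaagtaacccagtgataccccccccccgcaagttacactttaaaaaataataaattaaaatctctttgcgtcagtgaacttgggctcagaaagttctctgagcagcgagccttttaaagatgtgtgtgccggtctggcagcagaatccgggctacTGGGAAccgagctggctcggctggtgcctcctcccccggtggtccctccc
Abcc9: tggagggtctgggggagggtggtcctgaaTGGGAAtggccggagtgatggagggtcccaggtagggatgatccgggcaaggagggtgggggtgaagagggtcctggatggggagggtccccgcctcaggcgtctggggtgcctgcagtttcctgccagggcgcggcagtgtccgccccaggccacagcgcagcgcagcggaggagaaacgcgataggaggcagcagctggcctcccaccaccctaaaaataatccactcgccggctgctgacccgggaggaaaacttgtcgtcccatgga

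Further genes known from mural cells, none of them used by the rule, were high in the Pdgfra-negative population. A gene was counted as higher or lower where it differed by at least 2-fold in the same direction in each of the 3 libraries, with at least 20 CPM pooled in either population and the lower side set to no less than 3 counts in a library. By this count Pdgfra-negative barcodes were higher than Pdgfra-positive ones in 273 of 6966 genes (3.92%) and lower in 276 (3.96%), 549 in all (7.88%). Without library 3 the count was 1160, and without library 2 it was 829. With at least 4 of the 7 genes required, which kept 170 Pdgfra-negative barcodes, it was 40 higher and 141 lower. That limit also took out the 182 of 219 Pdgfra-positive barcodes that carried exactly 3 genes. The population compared with was then small and richer in rule genes. With every barcode thinned to 2000 UMIs before the rule, which kept 135 Pdgfra-negative barcodes, the count was 6 higher and 91 lower. Of 25 listed mural genes 22 passed the filter, and 16 of these were higher and 0 lower, with a median log2 difference of 3.01 against 0.03 over all genes tested. The cells were chosen by genes that vary together with these, so the counts describe the populations and test nothing.

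Vtn encodes vitronectin, a matrix protein made by pericytes, and stood at 449.9, 305 and 70.3 CPM in Pdgfra-negative barcodes, against 0.675, 15.1 and 10.7 CPM in Pdgfra-positive ones. Ebf1, a transcription factor of mural cells, stood at 1309.6, 1046 and 252 CPM, against 29.7, 56.6 and 53.6 CPM. S1pr3, a receptor for sphingosine 1-phosphate, stood at 676, 597 and 215 CPM, against 5.40, 7.55 and 29.5 CPM. In each of these genes every library of the Pdgfra-negative barcodes lay above every library of the Pdgfra-positive ones.

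Ndufa4l2, a mitochondrial protein induced in low oxygen, stood at 513, 588 and 103 CPM in Pdgfra-negative barcodes, against 43.2, 83.1 and 29.5 CPM in Pdgfra-positive ones. Kcne4, a regulatory subunit of potassium channels, stood at 601, 476 and 310.1 CPM, against 60.7, 30.2 and 61.6 CPM. Cspg4, the NG2 proteoglycan by which pericytes are often stained, stood at 351, 202 and 112 CPM, against 7.42, 7.55 and 24.1 CPM. Of the other surface genes, Mcam was higher in Pdgfra-negative barcodes (346 CPM, against 20.3 CPM pooled) and Anpep was not (23.6 CPM, against 41.0 CPM). Of 12 genes known from mural cells of the mouse brain 5 were at 0 in Pdgfra-negative barcodes, and Vtn was the highest of the rest.

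Apold1, an early-response gene of vessel cells, stood at 1434, 1042 and 558 CPM in Pdgfra-negative barcodes, against 4.72, 18.9 and 99.1 CPM in Pdgfra-positive ones, and endothelium had 821 CPM pooled. Gja4, the gap-junction protein connexin 37, stood at 257, 301 and 78.6 CPM, against 0.675, 22.7 and 0 CPM. Gja4 was one of the 12 genes whose smallest fold over the 3 libraries was largest. Both genes were lowest in library 3 of the Pdgfra-negative barcodes.

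The shares of cells were also compared at equal depth, with each barcode thinned to 1000 UMIs, which left out 14 Pdgfra-negative and 3 Pdgfra-positive barcodes. Vtn was then found in 26.6% of Pdgfra-negative barcodes, 0.926% of Pdgfra-positive ones, 0.352% of other fibroblasts and 0.0460% of epithelial barcodes, which should lack it. Before thinning Vtn was found in 51.1% of Pdgfra-negative barcodes (median 2483 UMIs), 3.20% of Pdgfra-positive ones (median 7291 UMIs) and 0.261% of epithelial ones (median 13436 UMIs). Rgs5, whose shares the rule itself sets, was found in 89.9% of thinned Pdgfra-negative barcodes and 12.5% of thinned Pdgfra-positive ones. Dcn, the proteoglycan decorin of fibroblasts, was found in 22.7% of thinned Pdgfra-negative barcodes, 97.2% of Pdgfra-positive ones and 4.44% of epithelial ones. Pdgfra-negative barcodes thus held a Dcn UMI more often than epithelial ones, and its source was not tested.

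**Figure D3:**
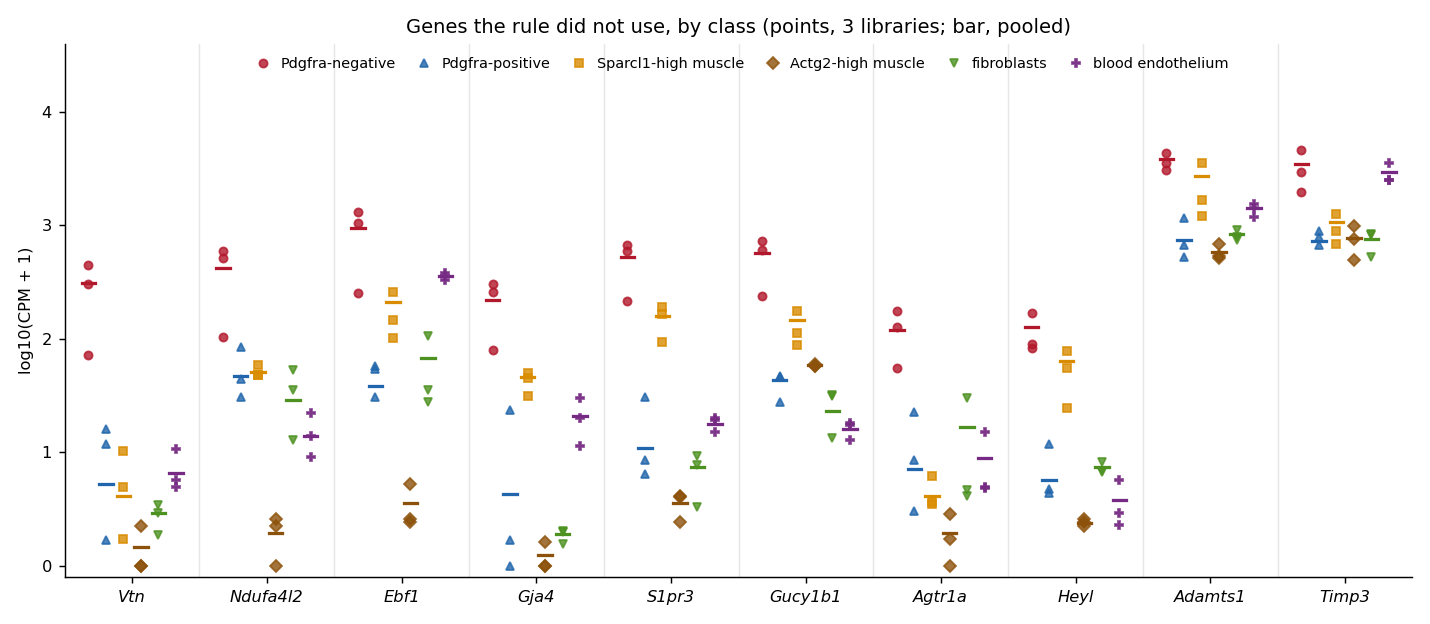
Level of 10 genes that the rule did not use as log10(CPM + 1), with a point for each library and a bar for the pooled value, in Pdgfra-negative barcodes, Pdgfra-positive barcodes and the other classes of the wall. Vtn, at 449.9, 305 and 70.3 CPM in Pdgfra-negative barcodes, was at 1.92 CPM pooled in other fibroblasts.

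The 12 genes with the largest smallest fold also included signalling genes. Rgs4, a relative of Rgs5 that also brakes G-protein signalling, stood at 353, 238 and 161 CPM in Pdgfra-negative barcodes, against 3.37, 0 and 10.7 CPM in Pdgfra-positive ones. Inpp4b, a phosphatase of phosphoinositides, stood at 207, 215 and 124 CPM, against 2.02, 15.1 and 8.04 CPM. Gdf15, a stress-induced cytokine, stood at 478, 395 and 95.1 CPM, against 35.1, 45.3 and 10.7 CPM. Rasd1, a small G protein induced by dexamethasone, was among the same 12 genes. In each of these 4 genes library 3 was the lowest of the Pdgfra-negative barcodes and still lay above every Pdgfra-positive library. Among the 6 genes most clearly lower were Ptgs1, the constitutive cyclooxygenase (20.2 CPM pooled, against 195 CPM), Itih5 (38.2 CPM, against 756 CPM) and Pappa, a protease that frees IGF (21.4 CPM, against 272 CPM).

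Genes of vessel tone were high in the same barcodes. Of 32 listed tone genes 24 passed the filter against Pdgfra-positive barcodes, with 13 higher and 1, Calcrl, lower, and a median log2 difference of 1.87. After scaling by the trimmed mean of M-values (TMM) Pde5a was no longer counted as higher. Both subunits of the guanylate cyclase that answers to nitric oxide were among the 13 higher genes. Gucy1b1 stood at 735, 606 and 236 CPM in Pdgfra-negative barcodes, against 45.9, 45.3 and 26.8 CPM in Pdgfra-positive ones. Gucy1a1 stood at 483, 444 and 232 CPM, against 8.09, 22.7 and 37.5 CPM.

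Receptors for peptides that constrict vessels were present with them. The endothelin receptor gene Ednra stood at 339, 211 and 116 CPM in Pdgfra-negative barcodes, against 49.9, 34.0 and 24.1 CPM in Pdgfra-positive ones. Ednrb, which encodes the other endothelin receptor, stood at 471, 439.9 and 70.3 CPM, against 4.05, 11.3 and 32.2 CPM. Agtr1a, the receptor for angiotensin II, stood at 125, 175 and 53.7 CPM, against 2.02, 7.55 and 21.4 CPM. Library 3 was again the lowest for these 3 genes in Pdgfra-negative barcodes.

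Rgs16, like Rgs5 a brake on G-protein signalling, ranged widely between libraries, at 1345, 691 and 145 CPM in Pdgfra-negative barcodes, against 115, 60.4 and 77.7 CPM in Pdgfra-positive ones, and was not counted as higher because of library 3. Pde3a, a phosphodiesterase, stood at 342, 301 and 484 CPM, against 33.7, 30.2 and 88.4 CPM, with library 3 the highest in both populations. Calcrl, the receptor subunit for CGRP and adrenomedullin, was at 37.7, 13.5 and 16.5 CPM, against 154, 139.7 and 80.4 CPM. Calcrl was thus low in Pdgfra-negative barcodes of all 3 libraries.

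Notch signalling genes followed. Of 16 listed 11 passed the filter, and Notch1, Jag1, Heyl and Nrarp were higher than in Pdgfra-positive barcodes with 0 lower (median log2 difference 2.07). Heyl, a target gene of Notch in mural cells, stood at 167, 89.8 and 82.7 CPM in Pdgfra-negative barcodes, against 3.37, 3.78 and 10.7 CPM in Pdgfra-positive ones. Nrarp, a target that dampens Notch, stood at 120.1, 103 and 112 CPM, against 0.675, 3.78 and 13.4 CPM. Jag1, a ligand that mural cells share with endothelium, stood at 191, 130.2 and 215 CPM, against 30.4, 26.4 and 53.6 CPM. Hes1, at 617, 637 and 641 CPM, against 337, 442 and 335 CPM, did not reach 2-fold in each library, and the ligand gene Dll4 was at 21.4 CPM pooled.

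Growth factors and receptors that vessel cells exchange differed in both directions. Of 23 listed 18 passed the filter, with Epas1 and Esam higher and Cxcl12, Ptn, Igf1, Adm and Vegfc lower. Among all genes tested 3.92% were higher and 3.96% lower. Epas1, the transcription factor HIF-2 alpha, stood at 949, 826 and 479.6 CPM in Pdgfra-negative barcodes, against 93.8, 102 and 121 CPM in Pdgfra-positive ones. Esam, an adhesion molecule of endothelium and mural cells, stood at 228, 166 and 186 CPM, against 0, 11.3 and 42.9 CPM. Angpt1, the ligand by which mural cells act on the endothelial receptor Tie2, was at 58.5 CPM pooled, against 31.1 CPM, and was not counted. Vegfa was at 190.1 CPM pooled, against 386 CPM, and Pdgfb, the ligand of the receptor in the rule, was at 3.37 CPM, from 3 UMIs.

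Genes of PDGF and TGF-beta signalling stood close to those of the Pdgfra-positive barcodes. Of 22 listed 19 passed the filter, with 0 higher and Ltbp1 and Tgfbr2 lower, where 3.96% of all genes were lower. Tgfbr2, a receptor for TGF-beta, stood at 84.8, 130.2 and 86.8 CPM in Pdgfra-negative barcodes, against 327, 355 and 292 CPM in Pdgfra-positive ones, without overlap. Id3, a target of BMP signalling, stood at 2059, 3255 and 810.3 CPM, against 998, 1171 and 667 CPM, and the library 3 value lay within the range of the other population.

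Matrix genes of fibroblasts were low in the Pdgfra-negative barcodes, and those of the basement membrane were mixed. Of 20 listed genes of fibrillar collagen and its partners 19 passed the filter, and 16 were lower and 0 higher than in Pdgfra-positive barcodes (median log2 difference -2.41), which the split at Pdgfra goes with. Col1a2 stood at 787, 1230.1 and 1108 CPM in Pdgfra-negative barcodes, against 9821, 7299.6 and 6028 CPM in Pdgfra-positive ones. Of 20 basement-membrane genes 20 passed, with Itga1 higher and Sparc, Bgn, Fn1, Nid1 and Col15a1 lower. Col4a1, a chain of type IV collagen, stood at 1931, 754 and 372 CPM, against 733, 582 and 512 CPM, so its library 3 value lay below that of the Pdgfra-positive barcodes. Itga1, the integrin subunit that binds collagen, stood at 897, 566 and 384 CPM, against 37.1, 49.1 and 99.1 CPM.

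Secreted proteases and their inhibitors differed in both directions. Of 18 listed 13 passed, with Adamts1, Adamts4, Adamts9 and Timp3 higher and Adamts2, Timp1, Timp2 and Mmp2 lower. Adamts1, a protease that cleaves versican, stood at 4381, 3529 and 3080.1 CPM in Pdgfra-negative barcodes, against 677, 525 and 1155 CPM in Pdgfra-positive ones. Timp3, an inhibitor that binds to the matrix, stood at 4576, 2981 and 1976 CPM, against 674, 782 and 889.5 CPM. Vcan, the versican gene itself, was at 37.1 CPM pooled, against 668 CPM, and was lower in each library.

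Muscle cells, which share many genes with pericytes, were used as 2 classes. Both had at least 10000 CPM of Acta2, Tagln and Myh11 together. The 942 barcodes of Sparcl1-high muscle had more UMIs of Sparcl1, Mustn1 and Adamts1 than of Actg2 and Des, and the 477 of Actg2-high muscle did not. At least 3 of the 7 rule genes were found in 180 of the 942, of which 138 were in library 3, and in 12 of the 477. These barcodes were over the contractile limit and were kept as muscle. Against Sparcl1-high muscle Pdgfra-negative barcodes were higher in 292 of 6950 genes (4.2%) and lower in 230 (3.31%), 522 in all (7.51%), and 1289 differed without library 3, where 2 libraries had to pass, and 790 without library 1. After scaling by the trimmed mean of M-values (TMM) the split was 204 higher and 341 lower. The median log2 difference over all genes tested was then -0.13 in place of 0.06, and against Actg2-high muscle -0.16 in place of 0.16.

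Contraction genes were lower, and the rule itself set the limit on Acta2, Tagln and Myh11, with which they vary. Of 24 listed contraction genes 4 that define the muscle classes were left out, and the other 20 passed the filter against Sparcl1-high muscle. Of these 13 were lower and 0 higher, with a median log2 difference of -2.14. Cnn1, the contractile regulator calponin, stood at 9.42, 8.98 and 66.2 CPM in Pdgfra-negative barcodes, against 997, 959 and 551 CPM in Sparcl1-high muscle. Myl9, the regulatory myosin light chain, stood at 386, 476 and 500.3 CPM, against 2787, 3073 and 1936 CPM. Against Pdgfra-positive barcodes Myl9 was higher, since those had 44.5, 79.3 and 113 CPM.

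Ion channel genes included lower and higher ones than in muscle. Kcnma1, the pore of the large calcium-activated potassium channel, had 2 UMIs in all Pdgfra-negative barcodes (2.25 CPM), against 99.9, 76.1 and 113 CPM in Sparcl1-high muscle. Its subunit Kcnmb1 was at 14.6 CPM pooled, against 76.0 CPM. Trpc6, a cation channel opened by receptor signalling, stood at 120.1, 76.3 and 37.2 CPM, against 18.5, 7.87 and 14.2 CPM.

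Receptor genes did likewise. Of 32 tone genes 30 passed against Sparcl1-high muscle, with Ednra, Agtr1a, Adora2a, Trpc6 and Rgs16 higher and Kcnma1, Kcnmb1, Ramp1, Rgs2 and Mrvi1 lower. After TMM scaling Ednra was no longer counted and Npr1 was counted as lower. Agtr1a stood at 125, 175 and 53.7 CPM in Pdgfra-negative barcodes, against 5.15, 2.62 and 2.48 CPM in Sparcl1-high muscle. Cckar, the cholecystokinin receptor by which the gallbladder contracts, had 0 UMIs in Pdgfra-negative barcodes of each library, against 129, 164 and 190.3 CPM in Sparcl1-high muscle, and Pnoc, the nociceptin precursor, had 0 UMIs, against 111, 429 and 136 CPM. In the fold rule a count of 0 in a library was set to 3 counts. Over the pooled barcodes 3 counts are 3.37 CPM, which is a floor and no upper limit.

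**Figure D4:**
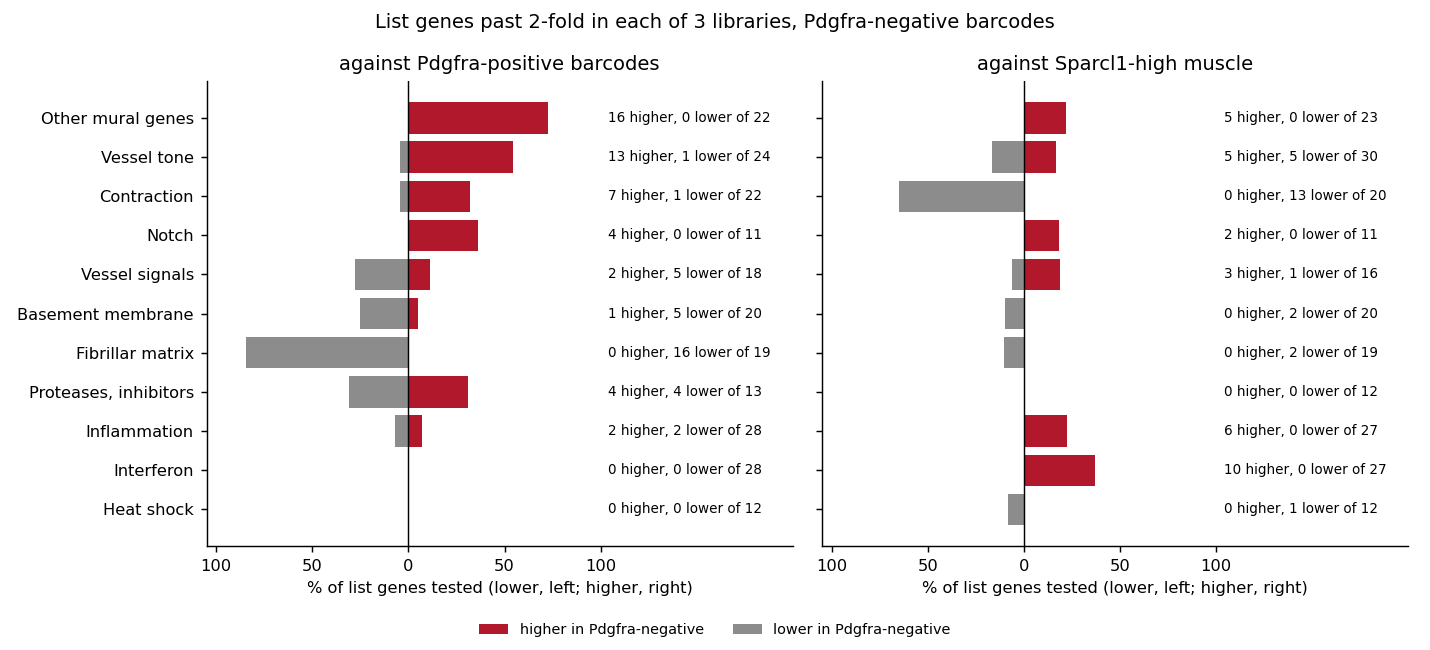
Share in percent of each list's genes that passed the filter and were counted as higher (right) or lower (left) in Pdgfra-negative barcodes, against Pdgfra-positive barcodes in one panel and against Sparcl1-high muscle in the other. Of the mural genes 16 were higher against Pdgfra-positive barcodes and 5 against Sparcl1-high muscle, and 13 contraction genes were lower against that muscle.

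Mural genes differed from Sparcl1-high muscle in part. Of 25 listed 23 passed, and Vtn, Ndufa4l2, Foxs1, Steap4 and Cd248 were higher with 0 lower, of which Ndufa4l2 and Foxs1 were not counted after TMM scaling. Steap4, a metalloreductase, stood at 323, 162 and 165 CPM in Pdgfra-negative barcodes, against 3.09, 5.25 and 16.7 CPM in Sparcl1-high muscle. Mcam (346 CPM pooled, against 512 CPM) and Jag1 (182 CPM pooled, against 171 CPM) were shared between them and not counted. Pcdh19, a protocadherin, stood at 299, 238 and 107 CPM, against 5.15, 13.1 and 6.03 CPM, and the smallest of its 3 folds was 17.8.

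Further genes set Pdgfra-negative barcodes apart from Sparcl1-high muscle by the same rule. Lipg, the endothelial lipase, stood at 304, 179.6 and 91.0 CPM in Pdgfra-negative barcodes, against 16.5, 15.7 and 8.52 CPM in Sparcl1-high muscle. Cdh2, the cadherin by which pericytes hold to endothelium, stood at 177, 112 and 24.8 CPM, against 1.03, 2.62 and 2.13 CPM. Vipr1, a receptor for the relaxing peptide VIP, stood at 87.1, 135 and 49.6 CPM, against 6.18, 2.62 and 3.55 CPM. In all 3 genes the libraries of these classes did not overlap.

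Actg2-high muscle, rich in the enteric actin of organ muscle, differed in more genes. Pdgfra-negative barcodes were higher than it in 730 of 6927 genes (10.5%) and lower in 334 (4.82%), 1064 in all (15.4%), or 495 and 550 after TMM scaling, and without library 3 the total was 1808. Of 16 Notch genes 11 passed, with 8 higher and 0 lower. Ebf1 was at 956 CPM pooled in Pdgfra-negative barcodes, against 2.56 CPM in Actg2-high muscle. Epas1 was at 791 CPM pooled, against 9.06 CPM. Sparcl1-high muscle lay between them in both genes, at 208 CPM Ebf1 and 356 CPM Epas1 pooled. The part in these levels of its 180 barcodes with at least 3 rule genes was not tested.

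Fibroblasts and blood endothelium marked the other borders. Against fibroblasts Pdgfra-negative barcodes were higher in 361 of 7064 genes (5.11%) and lower in 305 (4.32%), 666 in all (9.43%), or 294 and 389 after TMM scaling, and without library 3 the total was 1175. Mural genes were higher in 16 of 23 that passed and tone genes in 15 of 25. Against 629 barcodes of blood endothelium, the cells that pericytes cover, they were higher in 592 of 7253 genes (8.16%) and lower in 583 (8.04%), 1175 in all (16.2%), against 1777 without library 3. Of 9 endothelial markers Pecam1 and Cdh5 were at 0 by the rule, and the other 7 were lower, with Flt1 at 27.0 CPM pooled, against 2641 CPM in endothelium. Cyp1a1, the detoxifying enzyme, had 1 UMI in Pdgfra-negative barcodes, against 986, 1079 and 1312 CPM in endothelium.

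Some inflammatory genes were higher than in Sparcl1-high muscle. Of 32 listed 27 passed the filter against Sparcl1-high muscle, and Ccl11, Ccl19, Cxcl1, Il6, Il34 and Icam1 were higher with 0 lower. After TMM scaling Ptgs2 was counted as lower. Il6 stood at 1894, 795 and 707 CPM in Pdgfra-negative barcodes, against 146, 115 and 250.3 CPM in Sparcl1-high muscle. Cxcl1, a chemokine for neutrophils, stood at 1719, 624 and 314 CPM, against 72.1, 73.5 and 67.1 CPM. Il34, a ligand of the macrophage receptor CSF1R, stood at 141, 139 and 45.5 CPM, against 9.27, 7.87 and 8.16 CPM. Against Pdgfra-positive barcodes 28 passed, with Cxcl1 and Cebpb higher and Ccl8 and Ccl11 lower, which is 2 each way where 3.92% of all genes were higher and 3.96% lower. Ccl11, the chemokine eotaxin, stood at 323, 835 and 302 CPM in Pdgfra-negative barcodes, against 3021, 2236 and 857 CPM in Pdgfra-positive ones.

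Interferon-induced genes differed from those of muscle and of endothelium in opposite directions. Of 30 listed 27 passed against Sparcl1-high muscle, with 10 higher and 0 lower, or 7 after TMM scaling. Against endothelium 30 passed, with 1, Ifitm1, higher and 16 lower, where 8.16% of all genes were higher and 8.04% lower. Against Pdgfra-positive barcodes 28 passed with 0 in either direction. Isg15, a ubiquitin-like protein, stood at 1489, 1311 and 82.7 CPM in Pdgfra-negative barcodes, against 114, 222 and 15.6 CPM in Sparcl1-high muscle and 562, 1246 and 148 CPM in endothelium. Iigp1, an interferon-induced GTPase, stood at 989, 799 and 198 CPM, against 45.3, 61.6 and 17.7 CPM in Sparcl1-high muscle and 1499, 1701 and 745 CPM in endothelium. Isg15 lay above endothelium in libraries 1 and 2 and below it in library 3, and Iigp1 below it in all 3. Library 3 was the lowest in each class for both genes, and the summed interferon list stood at 10260, 10375 and 3345 CPM in Pdgfra-negative barcodes, against 6259, 7035 and 5206 CPM in Pdgfra-positive ones.

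Stress genes were high in both populations and also in other classes of the wall, and the cells had been digested at 37 °C. Pooled, the immediate early sum was 30026 CPM in Pdgfra-negative barcodes, 35324 CPM in Sparcl1-high muscle, 24564 CPM in Actg2-high muscle, 41030 CPM in fibroblasts and 29401 CPM in endothelium. The heat-shock sum was 21867, 15388, 20558, 19294 and 18852 CPM in the same order. The 12 heat-shock genes summed to 27025, 22352 and 12366 CPM in Pdgfra-negative barcodes, against 29138, 27491 and 18307 CPM in Pdgfra-positive ones. Of these genes 0 were counted in either direction, and after TMM scaling Dnajb1 was counted as lower. The 24 immediate early genes summed to 28028, 24296 and 38810 CPM, against 32852, 29776 and 51527 CPM. Of them Fosl2, Nr4a2 and Nr4a3 were counted as higher and Egr1 and Egr2 as lower, though Nr4a3 was not counted after TMM scaling. Before that scaling 3.92% of all genes were higher and 3.96% lower. Hspa1b, an inducible chaperone, was the fourth highest gene of the Pdgfra-negative barcodes in the ranking without ribosomal, mitochondrial, Gm, Rik and clone-named genes. It stood at 5764, 3079.6 and 2452 CPM, against 5862, 5041 and 4389 CPM in Pdgfra-positive ones. The part of digestion in these levels was not tested.

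**Figure D5:**
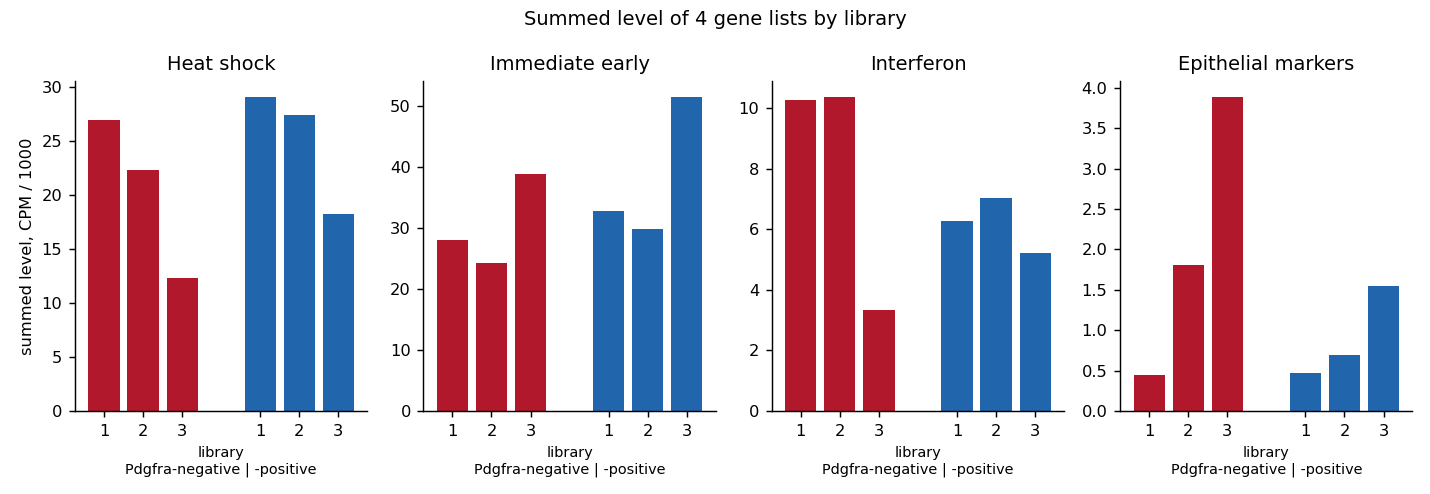
Summed level of the heat-shock, immediate early, interferon and epithelial lists in CPM divided by 1000, as a bar for each of the 3 libraries, in Pdgfra-negative barcodes (left of each panel) and Pdgfra-positive ones (right). The epithelial sum in Pdgfra-negative barcodes stood at 445, 1809 and 3890.5 CPM, and the heat-shock sum at 27025, 22352 and 12366 CPM.

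All 440 barcodes together were also set against each class. They were higher than Sparcl1-high muscle in 374 of 6816 genes (5.49%) and lower in 284 (4.17%), 658 in all (9.65%), and higher than Actg2-high muscle in 704 of 6700 (10.5%) and lower in 328 (4.9%), 1032 in all (15.4%), or 503 and 482 after TMM scaling. They were higher than blood endothelium in 759 of 7221 genes (10.5%) and lower in 741 (10.3%), 1500 in all (20.8%). Against fibroblasts, the class most like the Pdgfra-positive barcodes among them, they were higher in 108 of 6597 genes (1.64%) and lower in 30 (0.455%), 138 in all (2.09%). Apold1 and Stc1 led the genes higher than in fibroblasts by their smallest fold over libraries. Stc1, the secreted glycoprotein stanniocalcin 1, stood at 739.6, 619.5 and 62.0 CPM in Pdgfra-negative barcodes, and fibroblasts had 2.42, 1.70 and 0.867 CPM. Itih5, a matrix-stabilising protein, was higher than in Sparcl1-high muscle over all 440 barcodes and lower when barcodes with Pdgfra were left out.

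Few of the barcodes showed division. Mki67, a marker of dividing cells, had 5 UMIs in 2 of the 221 Pdgfra-negative barcodes. The Y-linked gene Ddx3y stood at 316, 377 and 376 CPM in them, and Xist had 0 UMIs, where the labels give male mice.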

How the data were processed

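Single cells of the gallbladder were measured with 10x 3′ libraries, and the deposited matrix holds raw UMI counts, with no normalization by the authors. Cell Ranger 6.1.1 and the build GRCm38 (mm10) are named in the submitters' processing notes, without further settings. The matrix held 27700 barcodes and 31053 genes, in libraries of 72943584, 121349261 and 58172348 UMIs. Barcodes under 300 genes or over 20% mitochondrial counts were dropped, and counts were summed per class and library and divided by their totals to give CPM. Muscle, fibroblasts, blood endothelium (at least 3 UMIs of Pecam1 and Cdh5, none of Lyve1, Prox1 or Mmrn1) and epithelium (at least 6000 CPM of the 4 epithelial genes) were set by thresholds of the same kind. Muscle and fibroblasts also lacked Pecam1 and Cdh5 and had under 6000 CPM of the epithelial genes, and fibroblasts had a Pdgfra UMI, under 10000 CPM of the 3 contractile genes and fewer than 3 rule genes.

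No test was possible, because the 3 libraries are not mapped to groups and are 1 per group, so fold rules and exact Poisson or Clopper-Pearson 95% intervals, which cover counting error only, are given. Rule and threshold genes were left out of the counts, as was Pdgfra where the split used it. The fold rule was tried on simulated Poisson counts at the depth of the Pdgfra-negative and Pdgfra-positive sums, with genes well above the filter raised. There it missed most changes of exactly 2-fold and found most larger ones. Lowered genes, genes near the filter and the other comparisons were not simulated. Scrublet (scanpy 1.11.5, 6% doublets expected) scored each library, and scored barcodes were kept. Genes were named by level and by smallest fold over libraries (12 higher and 6 lower per comparison), by list, and by range between libraries. The rankings by level, fold and range left out ribosomal, mitochondrial, Gm, Rik and clone-named genes. Surface, stress and signalling genes with a known role in vessel cells that fell outside that rule were chosen after their values were seen. The members and lists were chosen with earlier results of these data known, and the comparisons of Pdgfra-negative and Pdgfra-positive barcodes were added after values were seen. Promoters and their build come from RefSeq (GRCm38.p6), gene positions from GENCODE, and 4 of the 7 rule genes had a promoter there. The tools were pandas 2.3.3, scipy 1.17.1, matplotlib 3.10.9 and numpy 2.4.6 under Python 3.11.15.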

Additional observations from a re-analysis of the deposited data

How the results depend on the processing

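No paired analysis was possible because each group was 1 library and the libraries are not mapped to groups. The share of kept barcodes, 1.69%, was 0.796% with at least 4 of 7 genes, 1.52% and 2.04% with the contractile limit at 5000 and 20000 CPM, 0.849% without Pdgfra, 0.905% after thinning to 2000 UMIs, and between 1.26% and 2.17% without 1 library. Counts of genes past the fold for all 440 barcodes, 138 against fibroblasts, 658 against Sparcl1-high muscle, 1032 against Actg2-high muscle and 1500 against endothelium, moved most. Against fibroblasts the count was 477 with 4 of 7 genes, 666 without Pdgfra, 378 after thinning, 263 with mean CPM over barcodes, 82 with a filter of 50 CPM, 279 with no filter beyond 3 UMIs and 55 at 3-fold. Thinning gave 388 against Sparcl1-high muscle and 881 against endothelium, a filter of 50 CPM gave 667 against Actg2-high muscle, and 3-fold gave 303, 567 and 948 against the muscle classes and endothelium. Without 1 library the ranges were 183 to 240 against fibroblasts, 789 to 978 and 1219 to 1396 against the muscle classes and 1655 to 2019 against endothelium. For Pdgfra-negative barcodes 3-fold gave 244 against Pdgfra-positive ones, 231 and 541 against the muscle classes, 344 against fibroblasts and 679 against endothelium. Against Pdgfra-positive barcodes, 4 of 7 genes gave 181 and thinning 97, and against endothelium thinning gave 707. Without 1 library the ranges were 744 to 1160, 714 to 1289, 1331 to 1808, 898 to 1175 and 1435 to 1777 in the same order, the highest without library 3, where genes had to pass in 2 libraries only. Beyond the added requirement's own effect, fewer barcodes or fewer libraries, the cause was not tested. Of 170 alternative values of the share and the counts 133 stayed within the limits set for them. Of 322 alternative values of 23 gene levels over all 440 barcodes 180 moved beyond their counting interval, among them all 23 without Pdgfra and all 23 after thinning. After TMM scaling none of the list medians printed in the text changed sign, but medians near 0 of other lists did, such as that of the vessel-signal list against fibroblasts (-0.12 in place of 0.07). The counts of some further lists also shifted by a few genes after TMM scaling. Depth limits genes under 20 CPM, of which a library of Pdgfra-negative barcodes holds a few UMIs.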

Other observations

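Genes that answer to oxygen, metals and oxidants, and genes of uptake, were looked at because the mice had received particles, although the libraries cannot be tied to the exposed groups. Of 23 genes of oxygen response and respiratory isoforms 18 passed the filter against Pdgfra-positive barcodes, and Ndufa4l2 and Epas1 were higher with 0 lower. Of all genes tested 3.92% were higher. Ndufa4, the common relative of Ndufa4l2, stood at 25.9, 94.3 and 335 CPM in Pdgfra-negative barcodes, against 229, 245 and 303 CPM in Pdgfra-positive ones. It was low in library 1, where Ndufa4l2 stood at 513 CPM, and high in library 3, where Ndufa4l2 stood at 103 CPM. The library 3 sums held deep barcodes without Rgs5 and the highest epithelial sum, as given above. The part of these in the levels of Ndufa4 and Ndufa4l2 was not tested. Of 21 redox and metal genes 20 passed, with Hmox1 and Gpx3 lower, where 3.96% of all genes were lower. Hmox1, the heme oxygenase induced by oxidants, stood at 63.6, 71.8 and 45.5 CPM, against 227, 321 and 150.04 CPM, and did not overlap. Mt1, a metallothionein, stood at 2664, 4081 and 3088 CPM, against 1443, 2134 and 1133 CPM, and was not counted.

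Of 22 genes of caveolae and uptake 13 passed against Pdgfra-positive barcodes, with Dab2, a clathrin adaptor, lower (18.0 CPM pooled, against 99.0 CPM), a share near the 7.88% of all genes that differed either way. Cav1, the coat protein of caveolae, stood at 84.8, 85.3 and 244 CPM in Pdgfra-negative barcodes, against 259.5, 265 and 408 CPM in Sparcl1-high muscle. Lrp1, a receptor for many ligands, stood at 203, 265 and 211 CPM, against 213, 236 and 183 CPM. Cav1 was thus highest in library 3 of both classes, and the 2 classes overlapped in Lrp1.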
